A study of Mus musculus with 6 samples.

Results

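The contractile genes of muscle were followed across 6 RNA sequencing libraries of rat ovary, 3 from untreated animals and 3 from animals exposed to cowshed PM2.5 (fine airborne particles). The 10 genes were chosen by name, as 10 of 22487 genes in the deposited table, with earlier results of this comparison known. Acta2, Actg2, Myh11, Tagln, Cnn1, Smtn and Mylk stand for smooth muscle, Des for smooth and striated muscle, and Acta1 and Myl1 for striated muscle. Measured values entered the choice in that a name on several rows would have been selected on its summed count, but each of the 10 names had 1 row. The fall of Myl1 was among the results known when the set was named, so its value is given as a description of these libraries and not as independent evidence.

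All animals were adult female rats labelled wild type, and both groups are labelled 30 days, without a statement of what the days count. The strain, the dose, the route of exposure and the age in weeks or months are not in the labels. The species is taken as rat from the sample titles and the Ensembl identifiers of the genes, although the organism label is that of the mouse. Library totals ranged from 47662338 to 60749578 counts. Whether each library is a separate animal is not stated, so a p-value here reflects the spread among 3 libraries a group, which may be technical. All 15 markers of granulosa, theca, luteal and germ cells looked for were measured, with the granulosa gene Inha between 884 and 6136 CPM (counts per library total, made comparable with TMM factors) and the oocyte gene Zp3 between 5.16 and 50.9 CPM.

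Smooth muscle shortens when calcium and calmodulin activate myosin light chain kinase (Mylk), which phosphorylates the regulatory light chain and lets smooth muscle myosin (Myh11) pull on the actin filaments made from Acta2 and Actg2. Transgelin (Tagln), calponin (Cnn1) and smoothelin (Smtn) bind those filaments, and desmin (Des) ties the contractile units together. In the ovary such cells lie in the walls of vessels and in the theca externa around follicles. Acta1, the skeletal alpha actin, and Myl1, the essential light chain of fast skeletal fibres, belong to the sarcomere of striated muscle. In whole tissue, a change in the number of such cells and a change in RNA per cell cannot be told apart.

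Of the 10 genes, 1 passed the test across all genes: Myl1 fell in PM2.5. The other 9 did not pass, and 8 of them had a mean above the controls. Their higher means came from PM2.5 libraries 1 and 2, while PM2.5 library 3 lay within or below the range of the controls. In all tested genes, 0.928% were called at an adjusted p below 0.05 (142 of 15303), and 0.738% were called lower. At an unadjusted p below 0.05, 4 of the 10 genes (Acta2, Myh11, Tagln and Mylk) were higher, where 9.17% of all tested genes were higher and 11.7% lower. The median log2 fold change of the 10 genes was 1.41, beside 0.0041 over all tested genes.

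**Figure D1:**
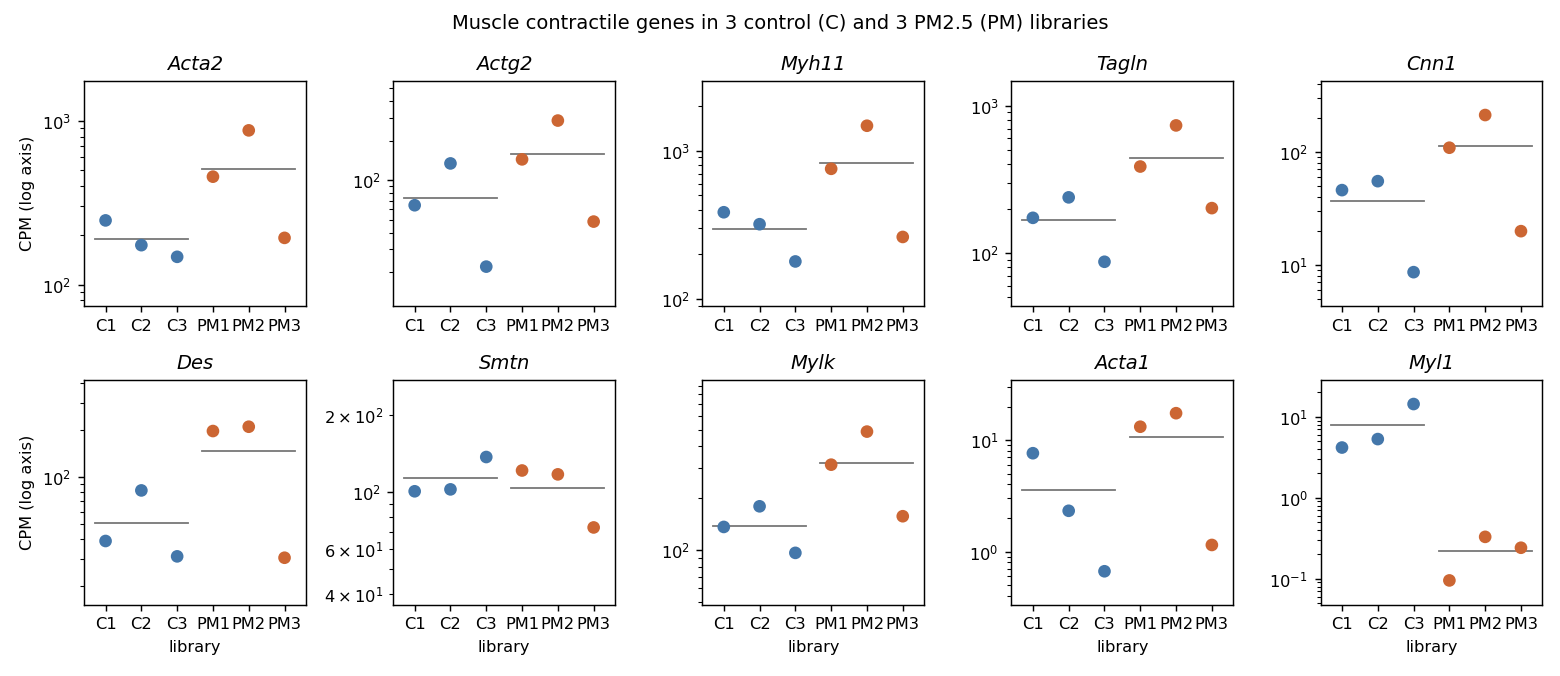
CPM (log axis, a separate axis for each gene) of the 10 genes in control libraries C1 to C3 and PM2.5 libraries PM1 to PM3, with 1 point per library and a grey line at each group's arithmetic mean. For 8 genes PM1 and PM2 lie above all controls while PM3 does not, and for Myl1 all 3 PM2.5 libraries lie below all controls.

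The actin genes of smooth muscle were both highest in PM2.5 library 2. Acta2, the actin of vascular smooth muscle and the theca externa, stood at 246, 174 and 148 CPM across the numbered controls and at 455, 872 and 193 CPM across PM2.5 libraries 1 to 3. PM2.5 libraries 1 and 2 stood above every control and library 3 lay among them, so the groups overlapped. The log2 fold change was 1.42 ± 0.52 (SE) and did not pass the quasi-likelihood test of edgeR after Benjamini-Hochberg adjustment over all tested genes (adjusted p 0.194). Actg2, the actin of visceral smooth muscle such as that of the gut and the reproductive tract, had 64.5, 134 and 22.0 CPM in the controls and 144, 285 and 48.5 CPM in PM2.5. Its controls already spanned 6.11-fold, and the log2 fold change of 1.11 ± 0.78 did not pass (adjusted p by edgeR's quasi-likelihood test 0.446). Leaving out PM2.5 library 2 gave 0.78 for Acta2 and 0.40 for Actg2, leaving out control 3 gave 0.69 for Actg2, and leaving out control 2 gave 1.88 for Actg2. Acta2 (ENSRNOG00000058039) lies on chromosome 1 from 231746548 to 231759554 on the minus strand and Actg2 (ENSRNOG00000029401) on chromosome 4 from 116021832 to 116046465 on the minus strand, as the deposited table gives them, with a genome build not given in the sources used here. The coding parts of the muscle actin genes are closely alike, so their counts, Acta1 included, are uncertain where reads could be assigned to more than 1 of them.

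Myh11, the myosin heavy chain that defines mature smooth muscle, showed the same order of libraries at its top and bottom. It had 385, 320 and 179 CPM in the controls and 755, 1471 and 262 CPM in PM2.5. The highest library was 8.20-fold above the lowest, and PM2.5 libraries 2 and 3, of the same group, were 5.61-fold apart. The log2 fold change was 1.49 ± 0.60 (adjusted p by edgeR's quasi-likelihood test 0.225). Myh11 (ENSRNOG00000057880) lies on chromosome 10 from 743685 to 838459 on the plus strand. Without PM2.5 library 2 its log2 fold change was 0.79.

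Tagln and Cnn1 encode proteins that bind the thin filament, and both were highest in PM2.5 library 2 and lowest in control 3. Tagln had 174, 239 and 87.4 CPM in the controls and 387, 735 and 202 CPM in PM2.5. Cnn1 had 45.9, 55.1 and 8.62 CPM in the controls and 109, 212 and 19.9 CPM in PM2.5, the widest span of the smooth muscle genes at 24.6-fold from lowest to highest library. For both, PM2.5 libraries 1 and 2 exceeded all controls and PM2.5 library 3 did not, and the log2 fold changes of 1.40 ± 0.53 for Tagln and 1.64 ± 0.92 for Cnn1 did not pass (adjusted p by edgeR's quasi-likelihood test 0.206 and 0.350). Without PM2.5 library 2 both log2 fold changes were 0.83. Tagln (ENSRNOG00000017628) spans 46222472 to 46230668 on chromosome 8 and overlaps Pcsk7 on the opposite strand, so its counts are uncertain if strand was not used in counting. Cnn1 (ENSRNOG00000027736) lies on the same chromosome from 20632338 to 20641098.

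Mylk, the kinase that switches smooth muscle myosin on, had the smallest p of the smooth muscle genes. It had 136, 180 and 96.5 CPM in the controls and 313, 487 and 157 CPM in PM2.5, and PM2.5 library 3 again fell between the controls. Its log2 fold change was 1.22 ± 0.42 (adjusted p by edgeR's quasi-likelihood test 0.179), and 0.78 without PM2.5 library 2. Mylk (ENSRNOG00000002215) lies on chromosome 11 from 65783008 to 66030261. With DESeq2, Acta2, Tagln and Mylk passed as well as Myl1, with adjusted p of 0.0357, 0.0447, 0.0366 and 7.41e-11, where DESeq2 called 11.6% of all genes to which it gave an adjusted p (1767 of 15273).

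In Des and Smtn, PM2.5 library 3 lay below every control in CPM. For Des this was narrow, and in FPKM PM2.5 library 3 (8.35) was above control 3 (8.15). Des, the intermediate filament of both kinds of muscle, had 39.0, 82.3 and 31.1 CPM in the controls and 197, 210 and 30.5 CPM in PM2.5. Its PM2.5 libraries 1 and 2 were alike, with a log2 fold change of 1.52 ± 0.71 (adjusted p by edgeR's quasi-likelihood test 0.276). Smtn had 101, 102 and 137 CPM in the controls and 121, 117 and 72.9 CPM in PM2.5. It was the member that varied least, 1.88-fold over the 6 libraries, and the one smooth muscle gene highest in control 3. Its log2 fold change was -0.13 ± 0.24 (adjusted p by edgeR's quasi-likelihood test 0.792), and leaving out control 3 gave 0.036 and leaving out PM2.5 library 3 gave 0.074. Des (ENSRNOG00000019810) lies on chromosome 9 from 76850982 to 76858699. Smtn (ENSRNOG00000019451) spans 78397778 to 78420886 on chromosome 14 and overlaps Selenom on the opposite strand, so its counts carry the same uncertainty as those of Tagln.

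The 2 striated muscle genes went in opposite directions. Acta1 had 7.63, 2.32 and 0.665 CPM in the controls and 13.2, 17.5 and 1.15 CPM in PM2.5. It shared the pattern of the smooth muscle genes, with PM2.5 libraries 1 and 2 above all controls and library 3 below controls 1 and 2, and a log2 fold change of 1.58 ± 1.11 (adjusted p by edgeR's quasi-likelihood test 0.447), which became 2.83 when control 1 was left out and 1.02 when PM2.5 library 2 was. Myl1 had 4.17, 5.31 and 14.4 CPM in the controls and 0.0951, 0.329 and 0.241 CPM in PM2.5, from 200, 272 and 714 counts against 5, 20 and 12. Every PM2.5 library was below every control, the sole member of the 10 whose groups did not overlap, where 27.2% of all tested genes did not. The mean in the controls was 35.9-fold that in PM2.5, and the log2 fold change was -5.14 ± 0.74 (adjusted p by edgeR's quasi-likelihood test 0.0434). Myl1 entered the test through the controls, since its PM2.5 libraries had 0.0343 to 0.132 FPKM (fragments scaled by gene length and library total) and the filter asked for a mean of 0.5 FPKM. The call ended when any 1 library was left out, with adjusted p from 0.0706 to 0.230 and log2 fold changes from -5.55 to -4.39. It also ended without the filter on low values (-5.14, adjusted p 0.0520), with limma on log2(FPKM + 1), a scale that shrinks low levels (-1.84, adjusted p 0.0596), and with the replicate block (-5.07, adjusted p 0.103). Myl1 (ENSRNOG00000013262) lies on chromosome 9 from 68437517 to 68448114 and Acta1 (ENSRNOG00000017786) on chromosome 19 from 51883715 to 51886742, both on the minus strand.

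**Figure D2:**
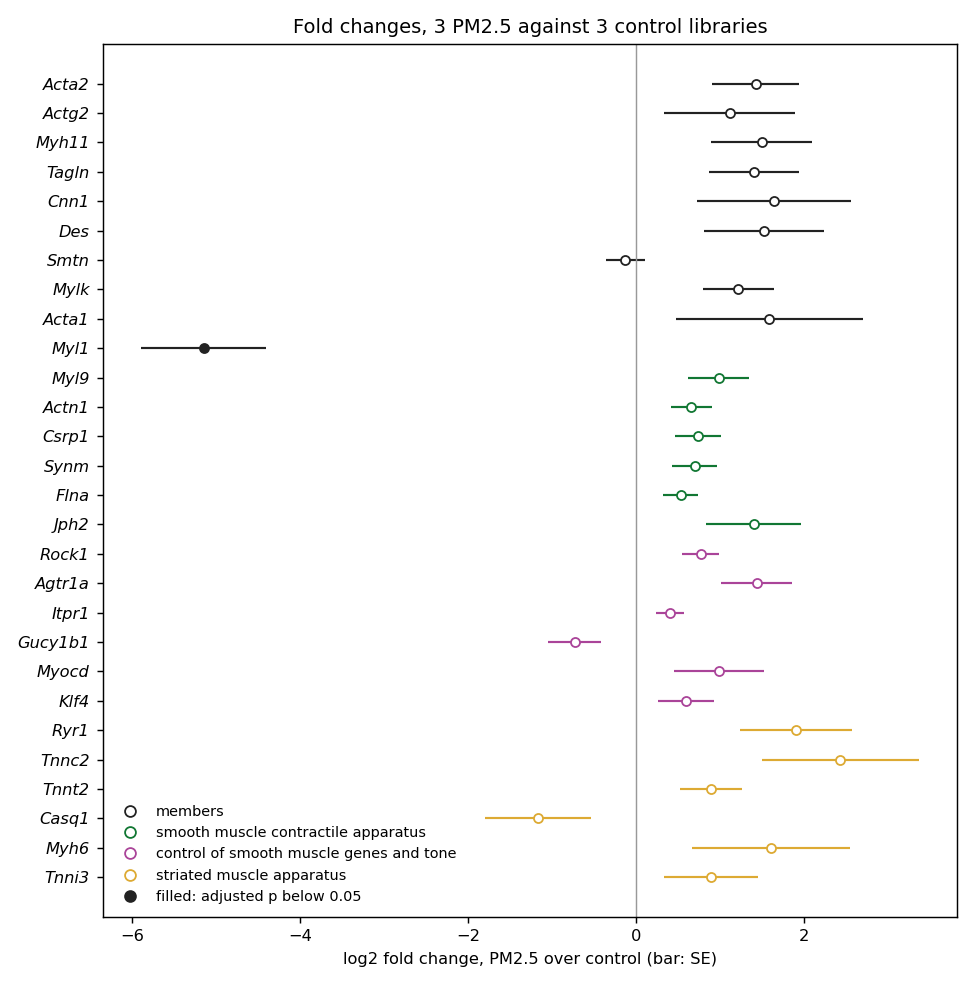
Log2 fold change of PM2.5 over control with its SE (bars) for the 10 genes (black) and for the genes with the smallest p of 3 lists, 3 libraries in each group, with filled points for an adjusted p below 0.05. Myl1 at -5.14 is the filled point, and Smtn lies at -0.13 while the other 8 members lie between 1.11 and 1.64.

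Over the 10 genes, PM2.5 library 2 was highest in 8 and PM2.5 library 1 came next in 9, Smtn included. Control 3 was lowest in 7. PM2.5 libraries 1 and 2 both exceeded every control in 8 genes, while PM2.5 library 3 lay within the controls in 7, below them in 3 (Des, Smtn and Myl1) and above them in none. The place of Des below the controls held in CPM and not in FPKM. Summed over the 8 genes of smooth muscle with Des, the level was 1191, 1286 and 710 CPM in the controls and 2481, 4390 and 986 CPM in PM2.5. With PM2.5 library 3 as the sole exposed library, a setting chosen after the data were seen that restates the levels of 1 library, 3 of the 10 genes were above the controls (Acta2, Tagln and Mylk) and 7 below.

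Per length, Tagln and Acta2 were the most abundant members in both groups. In FPKM the controls had 118 ± 57.8 for Tagln, 105 ± 29.2 for Acta2, 48.5 ± 38.7 for Actg2, 39.6 ± 14.8 for Myh11, 20.6 ± 14.2 for Cnn1, 18.4 ± 2.68 for Smtn, 15.5 ± 5.26 for Mylk and 14.02 ± 8.11 for Des (mean ± SD, n = 3). Myl1 at 3.21 ± 2.14 and Acta1 at 2.19 ± 2.25 FPKM were the lowest. Each of these neighbours overlapped over the libraries except Des and Myl1. In PM2.5 the FPKM order began with Tagln at 311 ± 191, Acta2 at 281 ± 190 and Myh11 at 111 ± 81.5, and ended with Smtn at 17.0 ± 4.40, Acta1 at 6.56 ± 5.24 and Myl1 at 0.0874 ± 0.0494. There, Smtn and Acta1 did not overlap, nor did Acta1 and Myl1.

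**Figure D3:**
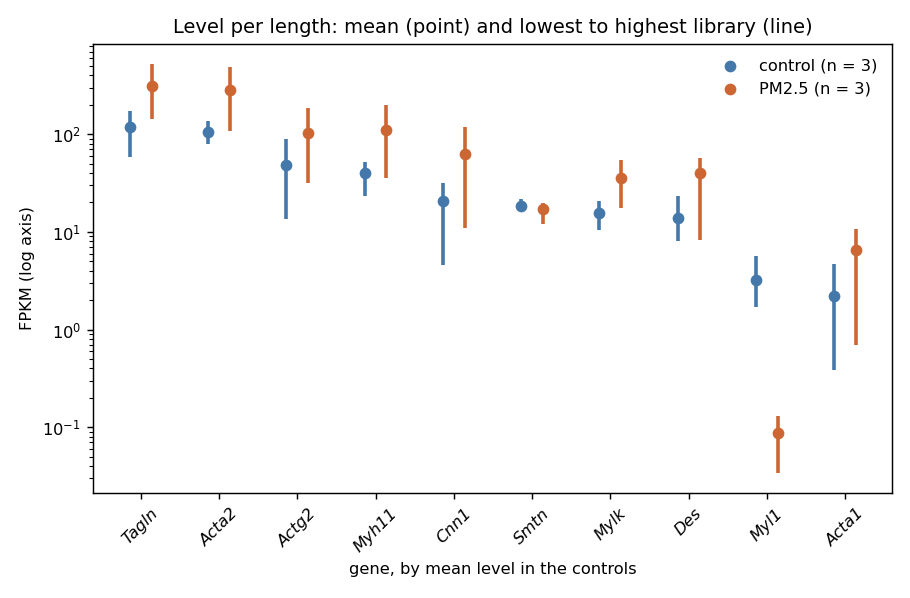
FPKM (log axis) of the 10 genes in order of their mean in the controls, with the mean of 3 libraries as a point and the lowest to highest library as a line. Tagln and Acta2 are highest in both groups, and Myl1 is the gene whose lines are apart between the groups.

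Ratios within a library showed which members kept step. Myh11 over Acta2, both per length, was between 0.294 and 0.444 in all 6 libraries, a 1.51-fold span beside the 8.20-fold span of Myh11 itself. Actg2 over Acta2, the visceral over the vascular actin, was 0.306, 0.903 and 0.174 in the controls and 0.370, 0.382 and 0.294 in PM2.5. The 3 PM2.5 libraries were close to each other in this ratio and lay inside the range of the controls, where control 2 was highest. Cnn1 over Myh11 was 0.495, 0.715 and 0.199 in the controls and 0.600, 0.599 and 0.314 in PM2.5, lowest in control 3 and PM2.5 library 3.

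Likeness over the 6 libraries was measured as the root mean square difference of log2(CPM + 0.5) after centring each gene on its own mean. Among the members the nearest pairs were Acta2 with Myh11 at 0.20 and Tagln with Mylk at 0.22, and the pair furthest apart was Cnn1 and Myl1 at 2.93. Of genes outside the set that carry a name in the table, Muc1, which encodes an epithelial mucin, was nearest to Myh11 at 0.15, followed by Mroh6 at 0.17, Prss39 at 0.19, Zscan10 at 0.23, Hpgds at 0.24, Diras3 at 0.25, and Ckb, the brain type creatine kinase, and Arhgef4, both at 0.28. Muc1 had 1.40, 0.995 and 0.383 CPM in the controls and 2.59, 6.21 and 1.02 CPM in PM2.5. Adding 0.5 to CPM shrinks differences between libraries at such low levels. Zscan10, at 0 CPM in control 3, had a log2 fold change of 2.65 and Hpgds 2.48, beside 1.49 for Myh11. The other named genes near Myh11 lay between 1.11 and 2.00. Among the genes near Acta1 were Adgrd1 at 0.39, Muc20 at 0.42, Rbm24 and Slc26a4, both at 0.52, Hoxb7 at 0.55, and Nxpe5 and Ccdc198, both at 0.56. These are descriptions over 6 libraries that all the genes share. Ckb, the most abundant of the genes near Myh11, had 102, 111 and 74.1 CPM in the controls and 205, 334 and 78.2 CPM in PM2.5, and the others had at most 27.9 CPM in any library.

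The other genes of the smooth muscle apparatus mostly had higher means in PM2.5, and none passed. Of 25 listed, 24 were found and tested, 23 of them above the controls and 1 below, with a median log2 fold change of 0.68 beside 0.0041 over all tested genes. With edgeR's quasi-likelihood test 0 passed over all genes and with DESeq2 also 0, while 8 were higher at an unadjusted p below 0.05. Here and for the lists below, 9.17% of all tested genes were higher at that threshold and 11.7% lower. DESeq2 called 11.6% of the genes to which it gave an adjusted p. Myl9, the regulatory light chain that Mylk phosphorylates, had 191, 167 and 107 CPM in the controls and 235, 470 and 214 CPM in PM2.5. In Myl9 the groups did not overlap, and its log2 fold change was 0.98 ± 0.36 (adjusted p by edgeR's quasi-likelihood test 0.196). Flna, the filamin that cross-links actin, also had every PM2.5 library above every control, from 460 to 601 CPM against 665 to 965 CPM (log2 fold change 0.53 ± 0.21). These were the 2 of 24 tested genes without overlap, where 27.2% of all tested genes did not overlap. The actin cross-linker Actn1 at 0.66 ± 0.24, the LIM protein Csrp1 at 0.73 ± 0.27, the intermediate filament Synm at 0.70 ± 0.27 and the junctional protein Jph2 at 1.40 ± 0.57 had overlapping groups. Itga8, an integrin, was the gene below the controls, at -0.89 ± 0.53.

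Genes that control smooth muscle transcription and tone were split. Of 22 listed, 20 were tested, 13 above and 7 below the controls, with a median of 0.16. In edgeR's quasi-likelihood test 0 passed, in DESeq2 2 (Rock1 and Agtr1a), and at an unadjusted p below 0.05 3 were higher. Among all tested genes 9.17% were higher at that threshold, and DESeq2 called 11.6% of those to which it gave an adjusted p. Agtr1a, a receptor for the vasoconstrictor angiotensin II, had 2.84, 3.63 and 6.73 CPM in the controls and 16.3, 9.74 and 9.58 CPM in PM2.5 (log2 fold change 1.43 ± 0.42, adjusted p by edgeR's quasi-likelihood test 0.140). Rock1, a kinase downstream of RhoA that sustains contraction, had 21.3, 34.7 and 22.9 CPM in the controls and 48.3, 40.2 and 45.7 CPM in PM2.5 (0.77 ± 0.22, adjusted p by edgeR's quasi-likelihood test 0.137). Itpr1, a calcium release channel, was the third gene whose groups did not overlap, at 0.40 ± 0.16. These were 3 of 20 tested genes, where 27.2% of all tested genes did not overlap. That PM2.5 library 3 was above the controls in them follows from the lack of overlap. Myocd, the coactivator that turns on smooth muscle genes with Srf, had 12.9, 8.80 and 3.50 CPM in the controls and 10.997, 13.1 and 26.0 CPM in PM2.5, highest in PM2.5 library 3. Srf was at -0.23 ± 0.17 and Klf4, a repressor of smooth muscle genes, at 0.60 ± 0.33. Of the listed subunits of the nitric oxide receptor, Gucy1b1 was at -0.73 ± 0.31 and Gucy1a1 at 0.36 ± 0.24.

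Of 48 further striated muscle genes, 42 were found and 20 passed the filter on low values. None passed in edgeR's quasi-likelihood test, 1 passed in DESeq2 (Ryr1) and 3 were higher at an unadjusted p below 0.05, with 13 above and 7 below the controls and a median of 0.16. Among all tested genes 9.17% were higher at that threshold, and DESeq2 called 11.6% of those to which it gave an adjusted p. Ryr1, the calcium release channel of skeletal muscle, had 32.3, 10.6 and 23.8 CPM in the controls and 134, 92.6 and 22.8 CPM in PM2.5, with library 3 again among the controls (log2 fold change 1.903 ± 0.67). Tnnc2 at 2.43 ± 0.93 and Tnnt2 at 0.89 ± 0.37, both troponin subunits, had every PM2.5 library above every control, at levels up to 3.91 and 45.3 CPM. They were the 2 of 20 tested genes without overlap, where 27.2% of all tested genes did not overlap. Casq1, which stores calcium in the sarcoplasmic reticulum, was at -1.17 ± 0.63, and Tnni3, a cardiac troponin, at 0.89 ± 0.56. Myh6, the cardiac alpha myosin, had 160, 39.3 and 17.1 CPM in the controls and 56.8, 212 and 389 CPM in PM2.5 (1.60 ± 0.94), highest in PM2.5 library 3. Among the 22 genes under the filter, which were not tested, the cardiac actin Actc1 reached at most 0.0975 CPM. The fast skeletal myosin Myh2 reached 0.563 CPM and the fast skeletal troponin Tnni2 0.334 CPM. Others of the 22 were higher, with Neb reaching 59.4 CPM in control 3. Ttn had 14.3, 18.7 and 6.06 CPM in the controls and 2.32, 6.23 and 7.09 CPM in PM2.5. Mybpc2 was at 0.605 to 0.956 CPM in the controls and 1.77 to 4.995 CPM in PM2.5. Xirp2 went the other way, from 0.730 to 1.17 CPM in the controls to between 0 and 0.304 CPM in PM2.5.

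**Figure D4:**
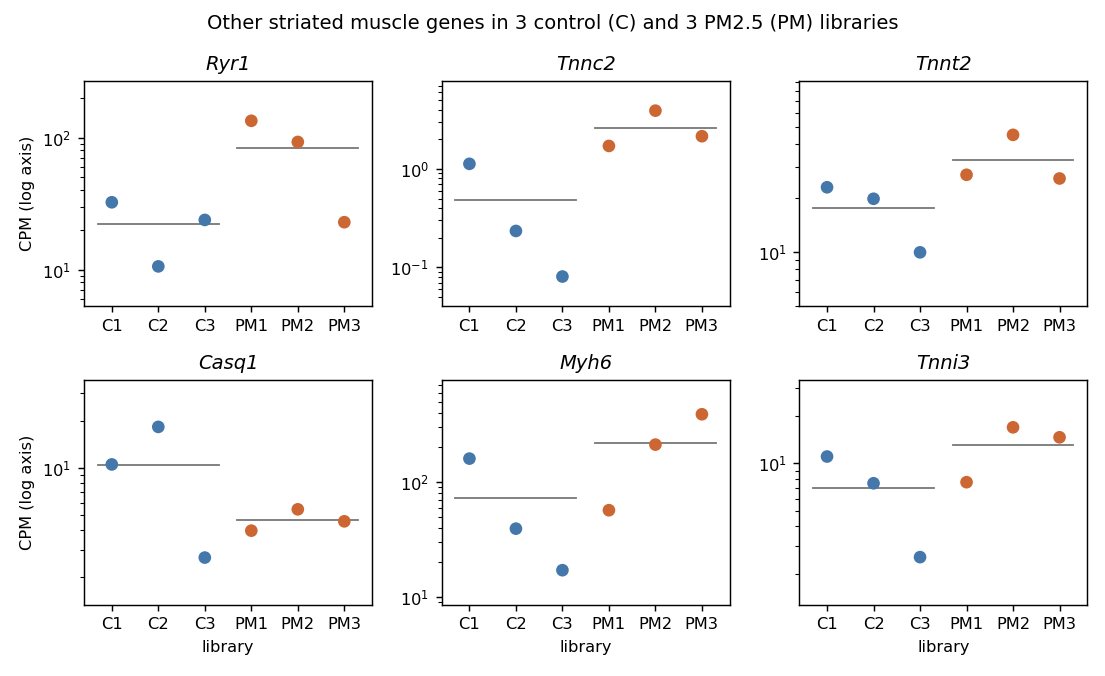
CPM (log axis, a separate axis for each gene) of the 6 further striated muscle genes with the smallest p, 1 point per library, with a grey line at each group's arithmetic mean. Ryr1 is high in PM1 and PM2, Myh6 is highest in PM3, and Casq1 has the PM2.5 libraries inside the range of the controls.

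Actins and myosins of nonmuscle cells were compared in the same fit. Of 10 listed nonmuscle genes 8 were tested, 6 above and 2 below the controls, with a median of 0.17, 0 calls in edgeR's quasi-likelihood test or DESeq2 and 0 at an unadjusted p below 0.05. Actb, cytoplasmic beta actin, ranged from 1923 to 2712 CPM (log2 fold change 0.18 ± 0.18) and Actg1, cytoplasmic gamma actin, from 809 to 1444 CPM (0.31 ± 0.24). The nonmuscle myosin heavy chains Myh10 at 0.51 ± 0.32, Myh14 at 1.39 ± 0.95 and Myh9 at -0.20 ± 0.26 and the tropomyosin Tpm4 at -0.21 ± 0.18 did not pass.

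Some markers of oviduct and uterine epithelium and of adipocytes were high in the same PM2.5 libraries as the smooth muscle genes, and others were not. Of 7 tested epithelial genes 7 were above the controls, with a summed level over the 8 found of 19.0 to 127 CPM in the controls and 406, 532 and 66.2 CPM in PM2.5 libraries 1 to 3. In edgeR's quasi-likelihood test 0 passed, in DESeq2 3 (Epcam, Krt8 and Pax8), and 4 were higher at an unadjusted p below 0.05. Among all tested genes 9.17% were higher at that threshold, and DESeq2 called 11.6% of those to which it gave an adjusted p. Krt8, a keratin of simple epithelia, had 19.8, 40.0 and 10.8 CPM in the controls and 138, 174 and 22.7 CPM in PM2.5, and Epcam, an adhesion protein of epithelia, had 7.32, 15.9 and 2.42 CPM against 98.7, 75.2 and 9.04 CPM. Pax8, a factor of the oviduct epithelium, had 6.86, 14.5 and 1.19 CPM against 46.8, 84.1 and 25.6 CPM. The genes of motile cilia in the same list differed from these in part: Rsph1, Dnah5, Cfap126 and Sntn were each higher in control 2 than in PM2.5 library 1, with Rsph1 at 10.5 against 6.51 CPM and Cfap126 at 15.7 against 14.4 CPM. Cfap126 (21.1 CPM) and Sntn (6.34 CPM) were still highest in PM2.5 library 2, while Rsph1 and Dnah5 (7.10 CPM) were highest in control 2. The adipocyte list, with 6 of 8 tested genes above the controls, summed to 45.04 to 75.5 CPM in the controls and 125, 122 and 67.6 CPM in PM2.5, with Adipoq at 33.3 and 33.7 CPM in the first and second PM2.5 library and at most 2.59 CPM elsewhere, Cfd at 1.00 ± 0.32 and Fabp4 at 0.80 ± 0.33 (log2 fold changes). Cfd was higher in PM2.5 library 3 (24.7 CPM) than in PM2.5 library 1 (17.8 CPM), Pck1 was highest in control 2 (14.5 CPM) and Plin1 in control 3 (1.87 CPM). Of the adipocyte list 0 passed in edgeR's quasi-likelihood test, 2 in DESeq2 (Adipoq and Cfd) and 3 were higher at an unadjusted p below 0.05. No marker of either list was at 0 in all 6 libraries, and the part of such tissue in the levels of the muscle genes was not tested.

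**Figure D5:**
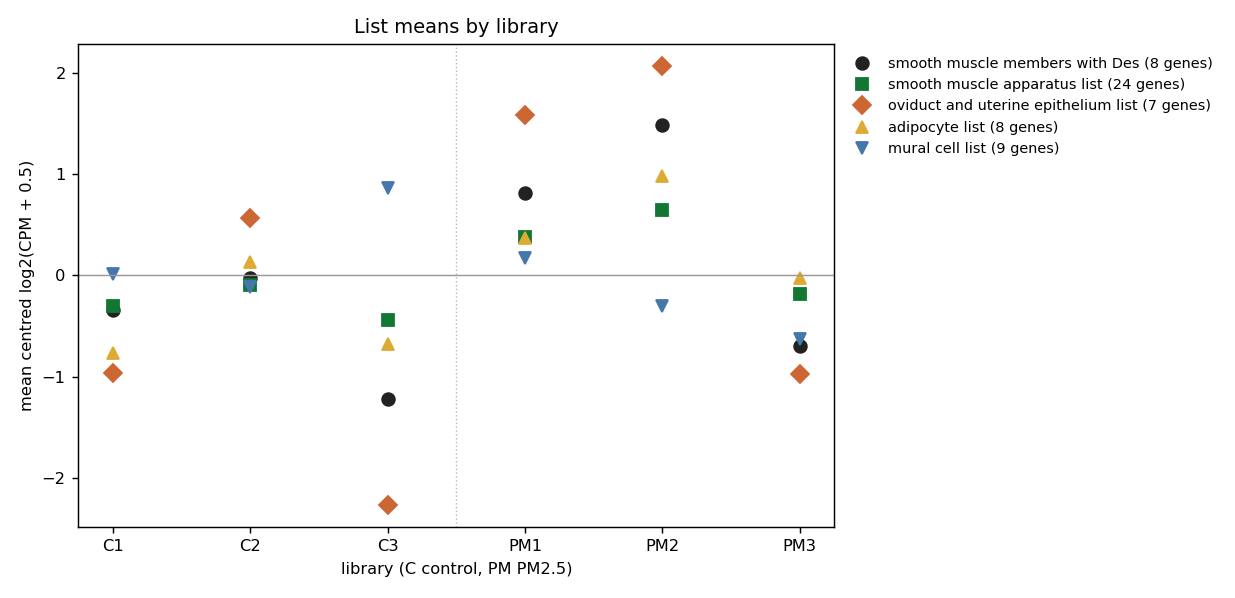
Mean over the tested genes of a list of log2(CPM + 0.5), each gene centred on its mean over the 6 libraries, by library. The smooth muscle genes of the set with Des (black), the other genes of the smooth muscle apparatus (green), the epithelial list (orange) and the adipocyte list (yellow) are highest in PM2 and next in PM1, and the mural cell list (blue) is highest in C3.

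The pericytes and other mural cells of small vessels, which share Acta2 and Tagln with smooth muscle, ran differently. All 9 tested mural markers had lower means in PM2.5 (median log2 fold change -0.33), with a summed level of 468, 534 and 872 CPM in the controls and 591, 431 and 331 CPM in PM2.5. In Rgs5, Pdgfrb and Mcam, controls 1 and 2 lay below the PM2.5 mean (8.82, 169 and 106 CPM). Their lower means in PM2.5 rested on control 3, at 16.7, 287 and 166 CPM. In Notch3, Abcc9 and Kcnj8 every control lay above the PM2.5 mean. Kcnj8 was nevertheless highest in PM2.5 library 1 (54.6 CPM). Notch3 in that library (50.0 CPM) exceeded controls 1 and 2 (42.8 and 31.4 CPM). Abcc9 was the 1 of 9 tested mural markers whose groups did not overlap, where 27.2% of all tested genes did not. For the remaining mural markers, controls 1 and 2 lay on either side of the PM2.5 mean. None passed in edgeR's quasi-likelihood test, 1 passed in DESeq2 (Abcc9) and 1 was lower at an unadjusted p below 0.05. Among all tested genes 11.7% were lower at that threshold, and DESeq2 called 11.6% of those to which it gave an adjusted p. Abcc9, a subunit of the potassium channel of vessel walls, had 68.0, 153 and 172 CPM in the controls and 63.2, 47.0 and 51.4 CPM in PM2.5 (log2 fold change -1.28 ± 0.34, adjusted p by edgeR's quasi-likelihood test 0.121). Notch3, a receptor of mural cells, was at -0.81 ± 0.50 and Cox4i2 at -0.84 ± 0.45. Control 3, the lowest library for 7 of the muscle genes, was the highest for the summed mural markers.

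Endothelial genes, stromal fibroblast genes and ovarian cell genes did not pass in edgeR's quasi-likelihood test. Of 10 endothelial genes 4 were above and 6 below the controls (median -0.41), among them the receptors Tek at 0.44 ± 0.15 and Kdr at 0.98 ± 0.35 and the cadherin Cdh5 at -0.83 ± 0.33, with 2 higher and 2 lower at an unadjusted p below 0.05 and 0 in DESeq2. Of 10 stromal genes 7 were above and 3 below (median 0.07), among them Dcn at 0.68 ± 0.38, Mfap5 at 0.70 ± 0.37 and Tcf21 at -0.62 ± 0.37, with 0 at an unadjusted p below 0.05 and 0 in DESeq2. Of 15 ovarian cell genes 9 were above and 6 below (median 0.37), among them the theca hormone Insl3 at -0.55 ± 0.15, the steroidogenic factor Nr5a1 at -0.74 ± 0.25 and the oocyte factor Bmp15 at 1.85 ± 0.70, with 1 higher and 2 lower at an unadjusted p below 0.05 and 1 in DESeq2 (Insl3). Among all tested genes 9.17% were higher and 11.7% lower at that threshold. DESeq2 called 11.6% of those to which it gave an adjusted p.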

How the data were processed

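RNA of 6 libraries was measured by RNA sequencing. Per the labels' protocols, RNA was poly(A) selected, made into dUTP libraries, which keep the strand, and read on an Illumina instrument as read pairs. The submitters' processing notes list StringTie 2.1.6, HISAT2 2.2.1 and cutadapt 1.9, as well as edgeR and DESeq2, without roles. Genome build, annotation and the use of strand in counting were not given in the sources used here. The deposited count columns hold whole numbers per gene and library, and the deposited FPKM columns are the authors' values, used to filter, to compare genes and in alternatives. Values from 1 to 20 were multiples of 4 more often than 1 in 4, in 31.8 to 33.9%, without a stated reason. Within a group no library repeats another (chi-square of at least 112 per degree of freedom).

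Genes averaging 0.5 FPKM or more across all libraries were tested with edgeR 4.0.16 in R 4.3.3 (TMM factors, glmQLFit, glmQLFTest, two-sided, Benjamini-Hochberg over all tested genes, threshold 0.05). The SE is the log2 fold change divided by the root of F. CPM used TMM factors. The test was checked on simulated counts, with requirements set for large changes only. Its power at the smaller fold changes of the smooth muscle members is not given by that check. Alternatives used limma 3.58.1, DESeq2 1.42.0, other filters and scalings, each library left out in turn and a replicate block. The members and lists were chosen with earlier results of these data known. Genes named are the members, the 6 smallest p of each pathway list, the 3 smallest of each cell list and the 8 nearest to Myh11 and to Acta1, of which 1 is not reported here. Itga8, Srf, Actc1, Myh2, Tnni2, Inha, Zp3, Rsph1, Dnah5, Cfap126, Sntn, Pck1 and Plin1 were named after their values were seen. So were Ttn, Neb, Mybpc2, Xirp2 and Gucy1a1. Of the listed genes, 11 were not matched by name and were not analysed here. The reference supplied was of the mouse, so no sequence is shown.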

Additional observations from a re-analysis of the deposited data

How the results depend on the processing

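Of all tested genes 142 changed, and between 130 and 180 did with median-of-ratios size factors, library size alone, a stricter FPKM filter, robust estimation and limma with either pseudocount. The count was 87 after filterByExpr, 8 with no filter, 1767 with DESeq2 (731 higher and 1036 lower, against 29 and 113) and 0 to 7 with a library left out. Members changed numbered 1, and 0 without a filter, 0 with limma on log2(FPKM + 1), 4 with DESeq2 and 0 with any library left out, where fewer samples entered the test. The cause of the other differences was not tested. Pathway list genes changed numbered 0, and 3 with DESeq2. The labels do not say that same-numbered libraries are pairs, so they were not treated as pairs in the main test. Their deviations from the group means had correlations of -0.27, 0.15 and -0.0080, and 1 of 6 libraries correlated best with its own number. With the replicate block 1 gene and 0 members changed.

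With PM2.5 library 3 as the sole exposed library, which is assumed to vary like the controls, 0 genes (1532 at an unadjusted p below 0.05) and 0 members changed, 3 members and 15 genes of the smooth muscle apparatus were above the controls, and signs turned for Actg2 (-0.60), Myh11 (-0.17), Cnn1 (-0.88), Des (-0.73), Acta1 (-1.62), Jph2 (-0.26), Myh14 (-0.76), Actg1 (-0.056), Krt8 (-0.053), Prss39 (-0.21), Diras3 (-0.30), Ckb (-0.29), Arhgef4 (-0.51), Hoxb7 (-1.93) and Ccdc198 (-2.87). With a library left out, signs turned for Smtn, between -0.25 and 0.074, and for Myh9, between -0.40 and 0.12. Of 170 values for the members, 150 kept direction and call, 10 lost a call (all Myl1), 3 gained one and 7 turned. Adipoq passed without PM2.5 library 3.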

Other observations

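The cardiac myosin genes had another order of libraries than the smooth muscle genes. The genes of this section were picked after their values were seen. Myh7, the slow cardiac and skeletal myosin, was at 13.1, 3.94 and 1.99 CPM in the controls, by number, and at 4.38, 16.5 and 27.5 CPM in PM2.5. It shared its highest library, PM2.5 library 3, and its lowest, control 3, with Myh6. The 2 genes are neighbours on chromosome 15, Myh6 from 28417616 to 28441720 and Myh7 from 28446550 to 28468217. Whether reads of 1 were counted for the other was not tested. The granulosa cell genes Inha (4444, 3245 and 884 CPM in the controls and 1720, 5348 and 6136 CPM in PM2.5) and Fshr (45.5, 29.7 and 12.3 CPM against 25.0, 41.6 and 52.2 CPM) had the same highest and lowest library. So did the granulosa cell gene Amh, the oocyte genes Gdf9, Zp3 and Bmp15, and Myocd. Other granulosa cell genes did not: Cyp19a1 was highest in control 2 (723 CPM) and lowest in PM2.5 library 1 (154 CPM), and Foxl2 was highest in PM2.5 library 1 (47.4 CPM) and lowest in control 2 (35.0 CPM).

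Neb, which encodes the ruler protein of the skeletal thin filament, had 59.4 CPM in control 3, the library where Myl1 was also highest, and between 4.39 and 14.4 CPM in the other 5. Its mean was under the FPKM filter and it was not tested.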
